A study of Homo sapiens with 6 samples.

Results

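UBB and RPS27A are 2 of the human genes from which cells make ubiquitin, and the sgRNAs against them were followed in a genome-wide CRISPR interference (CRISPRi) screen for the amount of an opioid receptor left after agonist. The members were found by name: the sgRNAs listed under either gene in the count files, read in the sublibrary that held their reads, gave 2 of the 18905 genes measured and 10 of the 103183 sgRNAs analysed, controls included. The members were chosen by gene name and by read counts in the top and bottom quartile libraries, with results of the same contrast known. Their phenotypes are therefore given as a description, with no test. The files list 20 sgRNAs for both genes, of which 10 had no read in any library and the other 10, 5 for each gene, passed the read minimum.

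All samples were of HEK293 FLP In cells, a line from human embryonic kidney into which a transgene can be recombined at a fixed site. Every one of the 6 samples carried a delta opioid receptor with a recycling sequence of the mu opioid receptor (DORmct in the labels), fused to the peroxidase APEX2 and made from a stably integrated transgene. The cells also expressed dCas9-KRAB-BFP, a Cas9 that does not cut and that represses transcription where an sgRNA guides it, and came from clones expanded after sorting and tested for knockdown. The 3 pooled sgRNA sublibraries, H17, H23 and H456, were transduced at a multiplicity of about 0.2, selected with puromycin at 0.75 μg/ml and grown for 8 days per the labels. Cells then received 10 μM DADLE, an opioid peptide, for 90 min and the fluorogenic substrate Amplex UltraRed, and the cells of the bottom and of the top quartile of fluorescence were sorted, giving 1 library per quartile and sublibrary. The methods of the study give other lengths for knockdown and agonist, although its results text also gives 8 days of knockdown. There was no sample without agonist and none of unsorted cells.

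The libraries held 23426498 to 50486627 reads, and those of H23, which carried both genes, held 40946430 in the bottom and 47989659 in the top quartile. An sgRNA's phenotype compares its read shares in both quartiles, as log2 of top over bottom, and is centred on the median nontargeting control (NTC) sgRNA of its sublibrary, so a negative value means more of the sgRNA among cells of low signal. The 570 NTC sgRNAs of H23 had an SD of 0.28, with 5% of them below −0.45 and 5% above 0.41. Titles, which spell the quartile out, gave the groups, whereas the library names given as descriptions carry a T for bottom and a B for top. Had those letters been used, every sign would turn. No library had a replicate, so the spread given with a gene is over its sgRNAs and the intervals of single sgRNAs cover counting error only.

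Ubiquitin is never made as a free protein. UBB encodes a head-to-tail chain of ubiquitin units, whereas RPS27A encodes 1 ubiquitin unit fused to eS31, a protein of the small ribosomal subunit. Deubiquitinases cut these precursors, the E1 enzymes charge the free ubiquitin, and ligases then attach it to substrates, which sends many cytosolic proteins to the proteasome and many endocytosed membrane proteins into the lumen of multivesicular endosomes and on to lysosomes. Knockdown of RPS27A can thus remove a ribosomal protein together with a source of ubiquitin, while UBB encodes ubiquitin alone.

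CRISPRi sgRNAs act near the start of transcription. RefSeq (GRCh38.p14) places UBB on the plus strand of chromosome 17 and RPS27A on the plus strand of chromosome 2. The stretch of 250 bases before a start is shown for each gene, since CRISPRi is aimed at promoters, although which start the sgRNAs were designed for is not known here. For UBB it is chr17:16381040-16381289, with 1 match to the CCAAT box (read as ATTGG on this strand) and 1 to GGGCGG in capitals. Its start lies 511 bases inside the annotated gene, so the stretch itself lies within the gene. For RPS27A it is chr2:55232428-55232677, which had none of the motifs searched. Its start lies 775 bases inside the gene, so this stretch too lies within the gene.
UBB: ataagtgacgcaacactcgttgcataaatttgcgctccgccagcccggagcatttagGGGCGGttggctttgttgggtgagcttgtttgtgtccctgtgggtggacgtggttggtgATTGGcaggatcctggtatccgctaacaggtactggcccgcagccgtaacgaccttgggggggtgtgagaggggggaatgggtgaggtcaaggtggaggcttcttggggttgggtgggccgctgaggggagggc
RPS27A: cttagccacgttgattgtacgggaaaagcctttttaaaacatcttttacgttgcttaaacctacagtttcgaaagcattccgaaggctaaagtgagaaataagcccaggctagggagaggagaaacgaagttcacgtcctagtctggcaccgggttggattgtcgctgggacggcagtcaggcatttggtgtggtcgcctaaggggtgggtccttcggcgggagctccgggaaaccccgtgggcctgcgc
The search on both strands covered the TATA box TATAAA, the CCAAT box, the Sp1 motif GGGCGG, the ETS motif CCGGAAG and the heat shock motif GAANNTTC, and the 2 matches in UBB do not overlap. Of 35116 such stretches in the RefSeq promoter table, 32.0% held the CCAAT box, 42.6% the Sp1 motif, 10.7% the TATA box, 8.52% the ETS motif and 5.78% the heat shock motif. The sgRNA names give a strand and a position, but the sources used here do not name the build of these positions, so the sgRNAs were not placed on these stretches.

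All RPS27A sgRNAs had a larger share of reads in the bottom than in the top quartile. In order of position, the sgRNA on the minus strand at 55459814 had 933 reads in the bottom and 551 in the top quartile, or a phenotype of −1.01 (95% counting interval −1.16 to −0.85, Clopper-Pearson). The sgRNA on the plus strand at 55459832 had 1347 and 620 reads, a phenotype of −1.37 (−1.51 to −1.23). The sgRNA on the minus strand at 55459862 had 1234 and 868 reads, a phenotype of −0.75 (−0.88 to −0.63). These 3 lie within 48 bp and had the 3 lowest values of the gene. The sgRNA on the plus strand at 55459880 had 1373 and 1197 reads, a phenotype of −0.44 (−0.56 to −0.33), and the one on the minus strand at 55460030 had 1289 and 992 reads, a phenotype of −0.62 (−0.75 to −0.50).

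The mean for RPS27A was −0.84 ± 0.36 (SD over 5 sgRNAs), or a read share in the top quartile 0.559 times that in the bottom after centring. This was rank 16 from the lowest of 6043 genes in H23 and rank 58 of all 18905. A gene was called lower at a mean of −0.5 or less, which 0.91% of the genes of H23 met, and RPS27A was among them. Of its sgRNAs, 2 lay at −1 or less, against 0.548% of all H23 sgRNAs, and 4 lay below the 5th percentile of the NTC sgRNAs, against 5.61%. The strongest lay below every one of the 570 NTC sgRNAs, while the weakest lay above 29 of them.

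UBB sgRNAs were also all negative, with smaller values. The sgRNA on the minus strand at 16284412 had 869 reads in the bottom and 680 in the top quartile, a phenotype of −0.60 (−0.75 to −0.45). The next on the minus strand, at 16284415, had 1232 and 1060 reads, a phenotype of −0.46 (−0.58 to −0.34). The sgRNA on the plus strand at 16284446, the one with the fewest reads, had 570 and 520, a phenotype of −0.38 (−0.55 to −0.21). With those of the other 2 sgRNAs, given next, the values became less negative with rising position. The counting intervals of neighbouring sgRNAs overlap, however, and the RPS27A sgRNAs had no such steady order. Whether position mattered was not tested. The sgRNA on the minus strand at 16284466 had 1068 and 1076 reads, a phenotype of −0.24 (−0.36 to −0.11), and that at 16284718, 306 bp from the first, had 1009 and 1071 reads, a phenotype of −0.16 (−0.29 to −0.04). For the last pair the raw reads were higher in the top quartile. The negative sign comes from comparing read shares, since the top library of H23 was the deeper one. Centred on all sgRNAs instead of the NTC sgRNAs, these 2 values were −0.23 and −0.15.

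The mean for UBB was −0.37 ± 0.18 (SD over 5 sgRNAs), or a read share in the top quartile 0.775 times that in the bottom after centring. This was rank 136 from the lowest of 6043 genes in H23. UBB was not called at a mean of −0.5. None of its sgRNAs lay at −1 or less, and 2 lay below the 5th percentile of the NTC sgRNAs. Its 5 sgRNAs had 1 sign, as did those of RPS27A, and 5.09% of the H23 genes with 5 sgRNAs at the start site had only negative ones. The mean of RPS27A was lower than that of UBB by an amount (−0.47) larger than the SD of either gene, although the values overlapped: in 23 of 25 pairs the RPS27A sgRNA was the lower. The sgRNAs of a gene share their target and are not replicates of the knockdown, and neither RNA nor protein of UBB or RPS27A was measured.

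The same reads can be set against the NTC sgRNAs of each library without forming a ratio between quartiles. In the bottom quartile, the RPS27A sgRNAs had 0.832, 1.20, 1.10, 1.22 and 1.15 times the reads of the median NTC sgRNA, in order of position. In the top quartile they had 0.420, 0.472, 0.661, 0.912 and 0.756 times. Thus 4 of the 5 RPS27A sgRNAs lay above the median NTC sgRNA among cells of low signal, and all 5 were below it among cells of high signal. The NTC sgRNAs of H23 were themselves widely spread. Averaged over both quartiles, 90% of them lay between 0.374 and 1.82 times the median. On that average the UBB and RPS27A sgRNAs ran from 0.452 to 1.07, within this range. The UBB sgRNAs had 0.775, 1.10, 0.508, 0.953 and 0.900 times the NTC median in the bottom quartile and 0.518, 0.808, 0.396, 0.820 and 0.816 times in the top quartile, so that 1 of them exceeded it in the bottom quartile and none in the top. Over both quartiles, the median sgRNA stood at 0.881 times the NTC median for RPS27A and at 0.858 times for UBB. Of the genes of H23, 28.8% had a lower value than RPS27A and 25.8% a lower value than UBB, and 90% lay between 0.606 and 1.52. The sgRNA numbers before knockdown were not analysed here, so loss of cells during growth cannot be told apart from a low start. In the 4 libraries of the other sublibraries these 10 sgRNAs had 5 to 22 reads each, with a median of 10 over all H23 sgRNAs.

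FAU, which encodes a ubiquitin-like protein fused to the ribosomal protein eS30 and so has the same build as RPS27A, came next after RPS27A and UBB when both were ranked with the processing and charging enzymes of ubiquitin and the ubiquitin-like modifiers, at −0.27 ± 0.41 (SD over 5 sgRNAs, 3 of 5 negative). Of the FAU sgRNAs, 1 has the position and strand of an sgRNA listed under another gene. UCHL5, a proteasome-bound deubiquitinase, followed at −0.26 ± 0.22 (SD over 5 sgRNAs).

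RPS27A had the lowest mean when ranked with 29 other proteins of the small ribosomal subunit, all of them in H23. Next came RPSA at −0.67 ± 0.29 and RPS18 at −0.62 ± 0.29 (SD over 5 sgRNAs each), and the distance between RPS27A and either was smaller than the SD of RPS27A. UBB, which encodes no ribosomal protein, would stand at rank 14 in this list, between RPS14 at −0.40 ± 0.48 and RPS15A at −0.37 ± 0.12 (SD over 5 sgRNAs each), and differed from either by less than its own SD. The median of the 29 genes was −0.33, beside −0.00638 over all genes of H23, and 28 were negative, against 52.3% of the genes of H23. The 4 genes RPSA, RPS18, RPS24 and RPS7 were called lower and none higher, where 0.91% of the genes of H23 were called lower and 0.116% higher. RPS16 was the highest, at 0.06 ± 0.27 (SD over 5 sgRNAs).

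No gene was called in the 4 lists of genes that free or charge ubiquitin, resemble it, read it on endosomes or degrade with it. Calls were rare over all genes, so for lists of 15 to 33 genes this is near the share over all genes. Of 15 genes of ubiquitin activation and return, which hold the E1 enzymes and deubiquitinases that free ubiquitin, none was called in either direction, beside 1.33% called lower and 0.169% called higher over all sublibraries. Their median was −0.03, beside 0.000885 over all genes, with UCHL5 the lowest and PSMD14, a deubiquitinase of the proteasome lid, the highest at 0.16 ± 0.21. Of these 15 genes 9 were negative, against 49.7% of all genes. The E1 enzymes UBA1 and UBA6 had means of −0.12 ± 0.33 and −0.11 ± 0.22 (SD over 5 sgRNAs each). Of 18 ubiquitin-like modifiers, all in H23, none was called, beside 0.91% called lower and 0.116% called higher in H23. Of these modifiers 6 were negative, against 52.3% of the genes of H23, with a median of 0.04 and FAU the lowest. NEDD8, which activates cullin ligases, was the highest at 0.45 ± 0.31, with 4 of 5 sgRNAs positive. Of 16 endosomal ubiquitin readers, among them the ESCRT-0 subunits that pick ubiquitylated cargo, none was called, beside the shares over all sublibraries. The median of these readers was 0.00173, and 8 of them were negative. HGS was the lowest at −0.18 ± 0.29 and EPN1, an epsin, the highest at 0.17 ± 0.20. Of 33 proteasome subunits, also all in H23, none was called, beside the shares of H23, 11 were negative and the median was 0.02. They ran from −0.33 ± 0.30 for SHFM1 to 0.36 ± 0.52 for PSMD4, a ubiquitin receptor of the proteasome. UBB lay below the lowest gene of each of these 4 lists, and RPS27A lower still. The distance from UBB to SHFM1, FAU or UCHL5 was smaller than the SD of UBB, and that to HGS was larger. None of these distances was tested.

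Genes of H23 with the most similar sets of sgRNAs were sought over the 5973 genes with at least 5 analysed sgRNAs, by the root mean square difference between 5 evenly spaced quantiles of the sgRNA phenotypes, which are the sorted values where a gene has 5. For UBB these were WBP11, a splicing factor, at a difference of 0.0356, EIF3A, a subunit of the initiation factor eIF3, at 0.0409 and DDX49, an RNA helicase, at 0.0430, with means of −0.36, −0.36 and −0.33. For RPS27A they were FIP1L1, a factor of mRNA 3′ end formation, at 0.0763, IMP4, a protein of the small-subunit processome, at 0.101 and SDAD1 at 0.124, with means of −0.80, −0.86 and −0.92. The likeness rests on 5 sgRNAs in 2 libraries.

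Genes beside UBB and RPS27A on the chromosome had means from −0.14 to 0.13. Apart from CLHC1, their closest sgRNAs lay 27677 to 222347 bp from those of UBB or RPS27A. CLHC1 lies on the opposite strand from RPS27A, and the closest pair of annotated starts of both genes is 115 bases apart. The closest sgRNA of CLHC1 lies 383 bp from one of RPS27A. In H17, where NTC sgRNAs were more dispersed (SD 0.47), the CLHC1 sgRNAs had a mean of 0.08 ± 0.44 (SD over 5 sgRNAs), with 2 of 5 negative. The CLHC1 sgRNA nearest to RPS27A, with 2290 reads in the bottom and 1339 in the top quartile, was its lowest at −0.46 (−0.56 to −0.36), above 55 of the 553 NTC sgRNAs of H17. The farthest, with 183 and 248 reads, was its highest at 0.75 (0.47 to 1.03). Those between had 0.02, 0.15 and −0.05, going away from RPS27A, in no steady order. Whether sgRNAs at either gene act on the other was not tested. On the other side of RPS27A, MTIF2, a mitochondrial initiation factor, had 0.02 ± 0.23, and the next genes out, RTN4 and CCDC88A, had 0.13 ± 0.31 and −0.09 ± 0.24. Beside UBB, CENPV had 0.06 ± 0.16 and TRPV2, a cation channel, −0.10 ± 0.13, with sgRNAs at least 27677 bp away. The next genes out, PIGL and LRRC75A (FAM211A in the library), had −0.11 ± 0.13 and −0.14 ± 0.23 (SD over 5 sgRNAs each). None of the 10 UBB and RPS27A sgRNAs shared position and strand with an sgRNA listed under another gene.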

How the data were processed

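sgRNAs were amplified by the authors from genomic DNA of sorted cells with 27 PCR cycles and no molecular identifiers, and reads were cropped to 38 bp and counted with ScreenProcessing, version 0.1 in the submitters' processing notes. What the authors deposited are raw counts, 1 per sgRNA and library, with no normalization.

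Each gene was placed in the sublibrary where most of its sgRNAs had their reads, and an sgRNA was kept there with at least 10% of its reads. An sgRNA entered with 50 or more reads in either quartile library. If either count was 0, both were raised by 1. sgRNA phenotypes were averaged per gene and start site, from 2 sgRNAs up, and where a gene had several sites, that with the most sgRNAs, then the one named first, stood for it. With 1 library per quartile no test was made. The Mann-Whitney test of the methods was not used, since the members were chosen with this contrast known. Calls are past a fold. Reads per library set the counting intervals (95%, Clopper-Pearson), and PCR reads are not independent molecules, so true errors are wider.

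The members and gene lists were chosen with earlier results of these data known. Named were, by rule, both genes with all sgRNAs, FAU, neighbours in order and on the chromosome, the extremes and calls of each list, and the most similar genes. UBA1 and UBA6 were added for their role. Some genes and the list medians that need them are not reported here, and these genes were left out of lists and ranks. Of 109 list genes, 109 matched the RefSeq gene table by symbol or synonym. The procedure was tested on simulated data. Analyses used Python 3.11.15, pandas 2.3.3 and scipy 1.17.1, with scaling factors from edgeR 4.0.16 (TMM) and DESeq2 1.42.0 as alternatives. Other alternatives were read minimums, added counts, centring on all sgRNAs, thinning, other averages over sgRNAs, pooled start sites and other folds.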

Additional observations from a re-analysis of the deposited data

How the results depend on the processing

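RPS27A stayed negative and past −0.5, and UBB negative and short of it, in each of 13 alternatives that kept this threshold. Another threshold changes both calls: at −0.3 UBB would also be called lower, and at −1 RPS27A would not. RPS27A ran from −1.04 (mean of the 3 strongest sgRNAs) to −0.71 (without the strongest), with −0.75 as the median over sgRNAs, and ranked 14 to 21 from the lowest in H23 and ahead of all 29 small ribosomal subunit proteins. UBB ran from −0.48 (3 strongest) to −0.31 (without the strongest) and ranked 87 to 203. The 10 sgRNA phenotypes moved by less than their counting interval in all 9 settings that alter counts or centring. The median of the small ribosomal subunit proteins was −0.49 with the 3 strongest sgRNAs and −0.23 without the strongest, and that of ubiquitin activation and return turned from −0.03 to 0.0394 with the median over sgRNAs and to 0.00383 without the strongest. Medians near 0 had no settled sign: that of the proteasome subunits was −0.000163 without the strongest sgRNA, and that of the endosomal readers lay between −0.00609 and −0.00474 with thinning, TMM, DESeq2 size factors or centring on all sgRNAs.

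Counts of called genes moved more. Lower calls, 55 in H23 and 252 in all, became 206 and 801 at a log2 fold of 0.3, 7 and 29 at 1, 30 and 71 without the strongest sgRNA and 181 and 719 with the 3 strongest, and 148 in all with the median over sgRNAs. Higher calls, 7 and 32, became 100 and 402 at 0.3, 0 and 0 at 1, 2 and 4 without the strongest, 84 and 299 with the 3 strongest, 15 and 129 with a minimum of 1 read, and 13 in H23 with the median over sgRNAs. In all sublibraries they were 15 with at least 100 reads and 16 with 50 reads in both libraries. These calls are folds of single libraries, with no p to set beside a count of 0.

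No paired analysis was possible because each quartile of a sublibrary has 1 library and the labels give no replicate numbers; no replicate was there to leave out. With 520 to 1373 reads per UBB or RPS27A sgRNA, counting error was small beside the spread of the NTC sgRNAs, which sets the limit for a single sgRNA.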
